A study of Homo sapiens with 33 samples.

Results

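Long intergenic non-coding RNAs (lincRNAs) are transcripts of genes that code for no protein and lie between, or beside, the protein-coding genes. The abundant lincRNAs of a gonadal differentiation of human embryonic stem cells were taken as the genes annotated as lincRNA whose mean FPKM (fragments counted relative to transcript length and library total) over 3 libraries was at least 5 in 1 or more of 11 groups. LINC01391, H19 and MEG3 were left out. The rule found 111 genes among 7629 lincRNA genes and 58735 genes in all.

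The cells were H9-DDdCas9VP192-FOXL2 clone 24, a line grown from 1 clone of H9 human embryonic stem cells. It carries a dead Cas9 activator that switches on the endogenous FOXL2 gene when doxycycline and trimethoprim are both present, and FOXL2 encodes a forkhead transcription factor of the ovarian supporting cells. All 11 groups shared this genotype and the gonadal differentiation protocol. They were day 4, sampled before induction, and the non-induced (CTRL) and induced (IND) cells of days 6, 8, 10, 12 and 14, IND having received both compounds from day 4. The medium before day 4 held the small molecules dorsomorphin and CHIR, and the medium after day 4 did not. Comparisons with day 4 therefore also span this change of medium. The 3 libraries of a group were technical replicates of 1 biological replicate, so every test below measures the spread between these libraries and not between differentiations. No group had doxycycline and trimethoprim without the activation, and the effects of these compounds and of FOXL2 cannot be told apart.

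A few lincRNAs have known work in the cell. MALAT1 stays in the nucleus at the splicing speckles, and NORAD is a cytoplasmic RNA that binds the PUMILIO proteins. Host genes such as the SNHG family are spliced to release small nucleolar RNAs (snoRNAs), which guide the modification of ribosomal RNA, and MIR503HG and MIR210HG lie over microRNA genes. Others are known mainly by their position beside a developmental regulator.

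The sequences of the microRNA loci come first because MIR503HG was the lincRNA called on the largest number of days after induction. MIR503 lies in an intron of MIR503HG on the same strand, MIR424 lies across its start, and MIR210 lies in an intron of MIR210HG. The mature sequences follow as RefSeq gives them on GRCh38.p14, 5′ to 3′, with the seed (bases 2 to 8) in capitals.
hsa-miR-424-5p (chrX:134546680-134546701, minus strand): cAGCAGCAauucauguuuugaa
hsa-miR-16-5p (chr3:160404754-160404775, plus strand): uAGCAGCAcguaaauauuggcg
hsa-miR-503-5p (chrX:134546371-134546393, minus strand): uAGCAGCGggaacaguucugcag
hsa-miR-210-3p (chr11:568112-568133, minus strand): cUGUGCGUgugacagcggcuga
The seed of miR-424-5p is that of miR-16-5p, shown for comparison, and the seed of miR-503-5p differs from them in its last base. Small RNAs are not measured in poly-A libraries, so the values below are those of the host transcripts.

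The starts of 4 lincRNAs on which the results turn are shown as the 300 bases that RefSeq gives around each, beginning 250 bases before the start. In MIR503HG the capitals are the bases of miR-424-5p. In the others the capitals mark ACGTG on either strand, the core of the hypoxia response element, which the E-box CACGTG also contains.
MIR503HG (chrX:134546581-134546880, minus strand): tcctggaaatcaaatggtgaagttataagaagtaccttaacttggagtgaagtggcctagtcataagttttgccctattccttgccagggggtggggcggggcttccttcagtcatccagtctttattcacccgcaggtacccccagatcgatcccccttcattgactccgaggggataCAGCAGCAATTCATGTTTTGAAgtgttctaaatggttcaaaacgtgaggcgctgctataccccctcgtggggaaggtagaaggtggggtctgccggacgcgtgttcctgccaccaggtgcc
LINC02381 (chr12:54125821-54126120, plus strand): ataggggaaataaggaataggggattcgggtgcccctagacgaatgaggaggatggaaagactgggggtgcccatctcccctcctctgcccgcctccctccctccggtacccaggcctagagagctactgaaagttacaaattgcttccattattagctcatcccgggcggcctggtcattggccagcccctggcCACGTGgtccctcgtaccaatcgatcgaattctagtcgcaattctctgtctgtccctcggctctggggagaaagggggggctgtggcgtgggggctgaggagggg
LINC01638 (chr22:27224630-27224929, minus strand): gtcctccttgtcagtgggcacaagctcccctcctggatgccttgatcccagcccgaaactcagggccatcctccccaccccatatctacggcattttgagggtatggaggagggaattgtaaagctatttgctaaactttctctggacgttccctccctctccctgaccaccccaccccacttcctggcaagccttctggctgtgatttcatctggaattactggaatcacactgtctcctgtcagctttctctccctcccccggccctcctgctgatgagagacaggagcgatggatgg
MIR210HG (chr11:568408-568707, minus strand): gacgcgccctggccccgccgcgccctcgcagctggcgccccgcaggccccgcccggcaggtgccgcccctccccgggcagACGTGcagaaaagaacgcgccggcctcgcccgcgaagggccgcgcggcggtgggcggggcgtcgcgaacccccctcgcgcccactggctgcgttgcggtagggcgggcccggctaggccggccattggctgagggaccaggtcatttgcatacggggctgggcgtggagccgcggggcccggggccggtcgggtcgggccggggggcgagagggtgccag
LINC02381 holds the palindrome CACGTG, MIR210HG a single ACGTG, and LINC01638 neither. MIR503HG also holds ACGTG, left in lower case there. A RefSeq promoter was found by symbol for 39 of the 111 lincRNAs. ACGTG was present in 16 of the 39 and in 21.4% of all 35116 promoters, and CACGTG in 6 of the 39 and in 7.26% of all. The forkhead motif TGTTTAC, on either strand, was present in 1 of the 39 (PURPL) and in 3.42% of all promoters. These matches describe the letters only.

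The 33 libraries held 23940837 to 51912815 counts, and the middle library 41420455. FOXL2 lay between 50.6 and 196 FPKM in the 15 IND libraries and did not exceed 0.131 FPKM in the other 18. Of 6 markers of pluripotent stem cells, 4 were at 1 FPKM or more at day 4 (POU5F1, SOX2, LIN28A and DPPA4) and 3 in day 14 CTRL. Their summed level ran from 498 to 544 FPKM at day 4 and from 48.3 to 65.7 FPKM in day 14 CTRL. Most of the day 4 sum was LIN28A (group means 459 FPKM at day 4 and 24.8 FPKM in day 14 CTRL). SOX2 did not fall (18.3 and 23.8 FPKM). Of 6 markers of the coelomic epithelium and gonad, GATA4, WT1 and UPK3B reached 1 FPKM in day 10 CTRL, while LHX9, EMX2 and NR5A1 reached it in no group. The part of these lists in the differences from day 4 was not tested. In bulk samples fewer cells of a type and less RNA per cell cannot be told apart.

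Day 10 IND replicate 2 stood apart from the other libraries. It had counts on 19254 genes against 23358 to 29002 in the other 32 libraries, the fewest counts in total, and 0.691% of its counts on mitochondrial genes against 1.14% to 4.28%. Of the abundant lincRNAs, 29 were more than 2-fold above both other day 10 IND libraries in it, 24 were at less than 0.5 of both, and 9 had no count. The pluripotent markers summed to 497 FPKM in it, just under the lowest day 4 library. LIN28A was the largest part of these sums, with group means of 459 FPKM at day 4 and 203 FPKM in day 10 IND. POU5F1 did not share this level, with group means of 24.6 FPKM at day 4 and 0.174 FPKM in day 10 IND. A total of 13 lincRNAs passed the rule through day 10 IND alone. All 13 failed it when this library was left out, among them AC073050.1 at 0.974, 30.4 and 2.47 FPKM, LINC01918 at 2.70, 21.7 and 3.29 FPKM and AL391244.3 at 3.33, 19.1 and 3.06 FPKM in replicates 1, 2 and 3. Without it 99 genes passed in all.

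**Figure D1:**
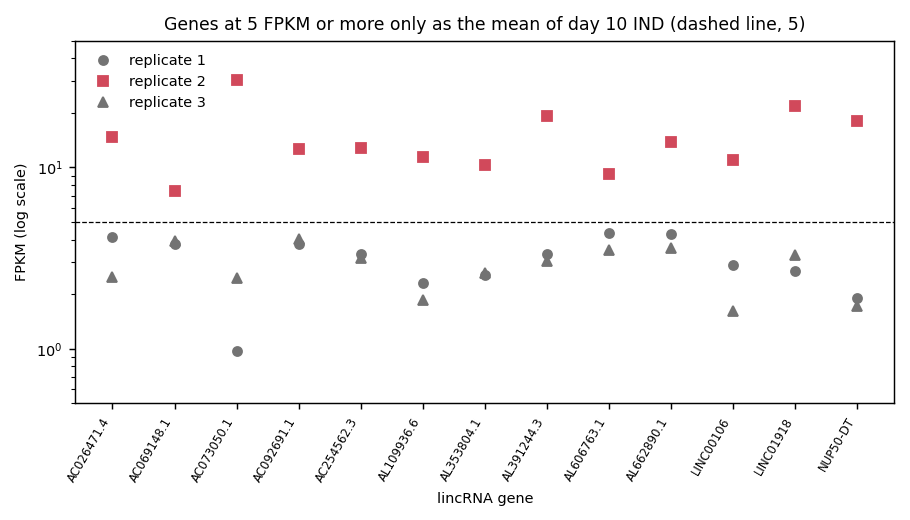
The level in FPKM (vertical axis, log scale) of the 13 lincRNAs that reached 5 FPKM only as the mean of day 10 IND, with a symbol for each of the 3 replicates and a dashed line at 5. Replicate 2 is above the line and above both other replicates for each gene, up to 30.4 FPKM for AC073050.1.

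The abundant lincRNAs held 44.3% to 53.3% of the summed FPKM of all lincRNA genes in the 11 groups. A total of 24 were at 5 FPKM or more in every group, 56 in 2 to 10 groups and 31 in 1 group, of which 11 were at day 4 and 13 in day 10 IND. The highest group mean fell at day 4 for 33 of them. At the threshold lay AC069148.1 (5.04 FPKM), EIF3J-DT (5.09 FPKM) and AC130371.2 (5.15 FPKM) just inside, and AC025575.2 (4.98 FPKM), AC009283.1 (4.98 FPKM) and AC254633.1 (4.97 FPKM) just outside.

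**Figure D2:**
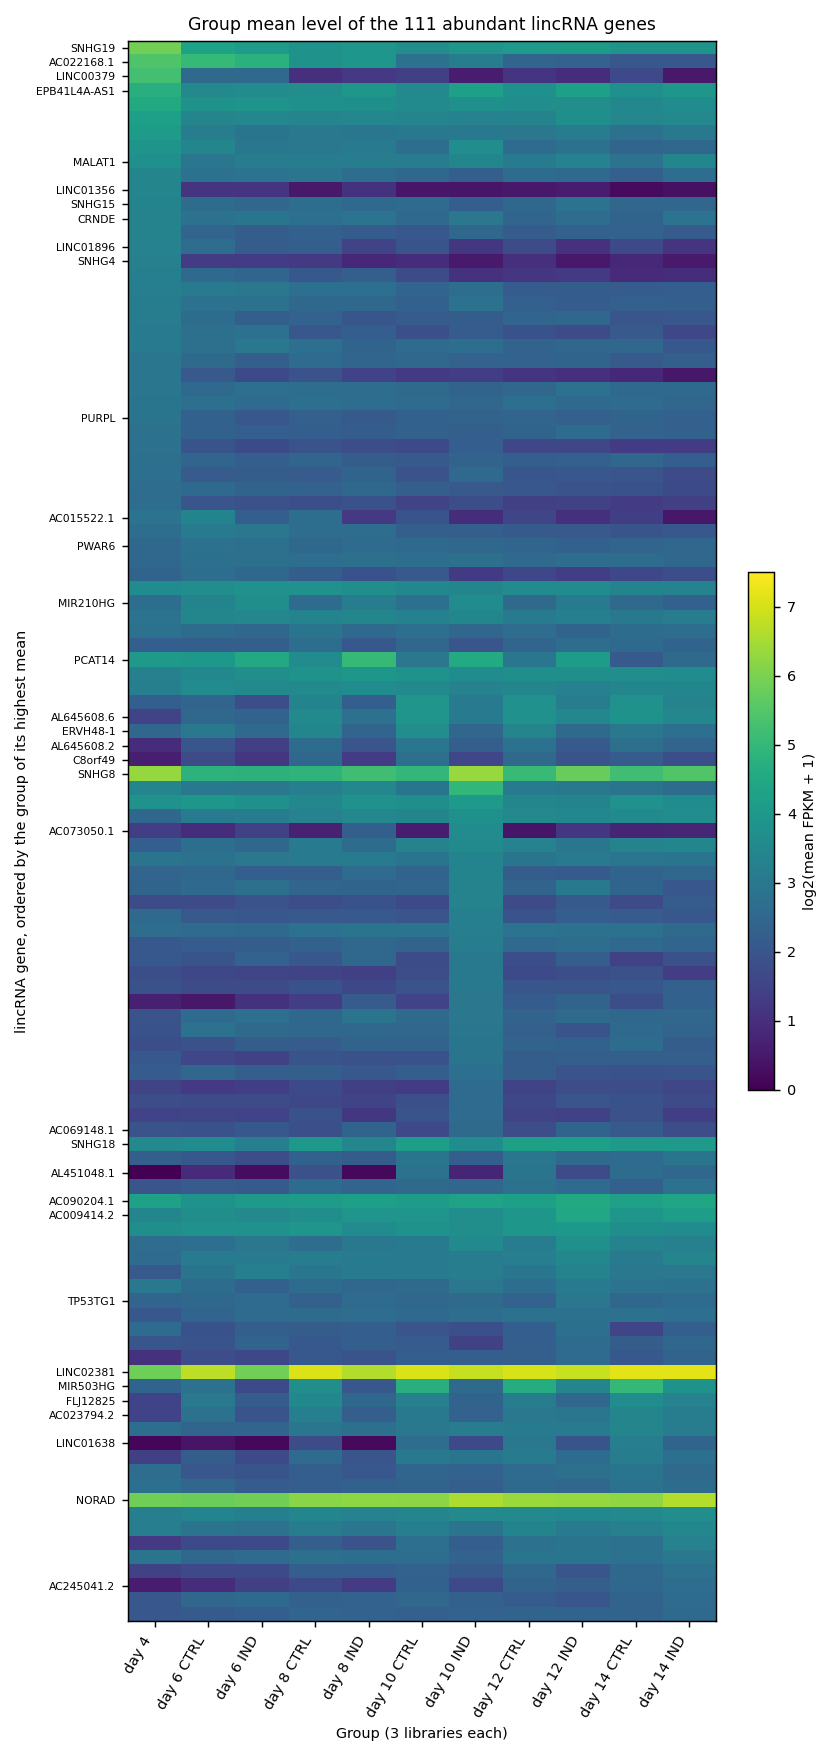
Group mean level of the 111 lincRNAs as log2(mean FPKM + 1), with the 11 groups across and the genes down, ordered by the group in which each was highest, with names beside some of the genes described. The block of 33 genes highest at day 4 darkens (lower levels) in the later groups. The 26 genes highest in day 10 IND stand out in that group. Both patterns follow from the ordering, and 13 lincRNAs reached 5 FPKM in day 10 IND alone, through its replicate 2. LINC02381 and NORAD are bright (high levels) in all groups.

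LINC02381 was the most abundant, with a mean of 113 FPKM over the 33 libraries, the lowest at 36.6 and the highest at 163 FPKM. At day 4, however, SNHG8 (78.6 FPKM), SNHG19 (58.5 FPKM) and NORAD (57.1 FPKM) had group means above that of LINC02381 (56.6 FPKM). Over all libraries NORAD followed with 74.2 FPKM and SNHG8 with 43.0 FPKM, a mean that includes 165 FPKM in day 10 IND replicate 2. The next in order were SNHG19 (18.8 FPKM), AC090204.1 (18.0 FPKM), EPB41L4A-AS1 (14.6 FPKM), AC022168.1 (14.3 FPKM), PCAT14 (14.2 FPKM), AC009414.2 (13.9 FPKM) and SNHG18 (13.7 FPKM). The last 4 of these means lay closer together than the spread of any of the 4 genes over the libraries, and PCAT14, for example, ranged from 2.82 to 45.7 FPKM. AC090204.1 and AC009414.2, which carry only clone names, were not called in any comparison.

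The median exon length of the abundant lincRNAs was 1034 bases, against 759 for all lincRNA genes, and 32 had a single exon. In 24 the start lay within 1000 bases of that of a protein-coding gene in head-to-head orientation, and 23 overlapped a protein-coding gene. The libraries were non-directional, so reads from opposite strands could not be separated. Exon bases were shared with another gene in 28 lincRNAs, among them EPB41L4A-AS1 (49.6% of its exon bases, with EPB41L4A) and SNHG4 (16.7%, with MATR3 and SIL1), and their counts are uncertain to that extent.

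Differentiation without induction was followed by comparing CTRL of each day with day 4 (DIFF), 5 comparisons that share the day 4 libraries. In the quasi-likelihood test of edgeR, with p adjusted over all genes after Benjamini and Hochberg, 14 lincRNAs were higher and 21 lower at day 6 among 108 tested, where 21.6% of all genes tested were called (11.0% higher and 10.6% lower). At day 8, 27 were higher and 30 lower among 111, and 37.1% of all genes tested were called (18.1% higher and 18.9% lower). The counts were 29 and 35 at day 10, where 45.1% of all genes tested were called (23.1% higher and 22.0% lower). They were 26 and 36 at day 12, where 48.1% of all genes tested were called (24.4% higher and 23.8% lower), and 25 and 35 at day 14, where 47.6% of all genes tested were called (24.6% higher and 22.9% lower). The lincRNAs were chosen by their mean FPKM in groups that include these, so the counts are a description. Of the 35 called at day 6, 27 also reached 5 FPKM in a group outside the comparison, and of the 60 called at day 14, 50 did. The 35 calls of day 6 became 23 without day 4 replicate 1 and also 23 without CTRL replicate 1, 2 or 3, where 12.1% to 13.4% of all genes tested were called. Without day 4 replicate 3 they rose to 21 higher and 26 lower, where 30% of all genes tested were called. That library, which enters all 5 comparisons, had 1.14% of its counts on mitochondrial genes, against 3.34% and 4.28% in the other day 4 libraries. It had counts on 23358 genes against their 24485 and 25338. SNHG4, LINC01356, LINC01387, GATA3-AS1 and PURPL are named below although they reached 5 FPKM at day 4 alone, and their levels against day 4 are given with no test. The median log2 fold change of the lincRNAs lay between -0.07 and 0.00 and that of all genes between -0.01 and 0.00. Over the 5 comparisons 20 lincRNAs were lower on every day, 9 were higher on every day, none was called in both directions and 37 were never called. The 20 include SNHG4, LINC01356, LINC01387, GATA3-AS1 and PURPL, which passed the rule through day 4 alone. The share of all genes called on every day was not worked out, so these counts too are a description.

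Most of the snoRNA host genes were lower from day 6. SNHG19, which hosts SNORD60, was at 61.8, 44.4 and 69.2 FPKM at day 4 and at 19.9, 18.2 and 20.2 FPKM in day 6 CTRL. These groups lay far apart, and the log2 fold change with its standard error, the form in which all differences follow, was -1.58 ± 0.19, n = 3 per group, adjusted p = 0.000222. SNHG8, host of SNORA24, went from 72.0, 61.9 and 102 FPKM to 22.8, 28.5 and 31.8 FPKM (-1.49 ± 0.19, n = 3 per group, adjusted p = 0.000322), and here too no library of day 6 reached those of day 4. SNHG4, host of SNORA74A, was at 8.49, 10.4 and 6.71 FPKM at day 4, which made it a member, and at 1.39, 1.71 and 1.52 FPKM in day 6 CTRL. SNHG15, host of SNORA9, and EPB41L4A-AS1, host of SNORA13, fell by 0.86 and 1.28 on the log2 scale at day 6, and SNHG19, SNHG8, SNHG15 and EPB41L4A-AS1 were called lower on all 5 days.

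SNHG18, host of SNORD123, was not called on any day. It was at 12.0, 14.2 and 5.53 FPKM at day 4 and at 18.1, 18.3 and 17.9 FPKM in day 12 CTRL (log2 fold change 0.76 ± 0.29, adjusted p = 0.0583). The day 12 libraries were above all of day 4, whose libraries were spread. Of the 23 snoRNA host genes tested at day 6, lincRNA or not, 16 were lower and 1 was higher, with a median log2 fold change of -0.97. Of all genes tested, 10.6% were lower and 11.0% higher there. At day 14, 16 of 23 were lower and none higher, with a median of -1.04, against 22.9% of all genes lower and 24.6% higher. Among those outside the lincRNA class, GAS5 fell by 1.81 and SNHG1 by 1.36 on the log2 scale at day 14.

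Other lincRNAs were also high at day 4. LINC00379 went from 35.5, 29.6 and 47.5 FPKM at day 4 to 4.75, 3.98 and 6.32 FPKM in day 6 CTRL and 2.48, 2.33 and 1.66 FPKM in day 14 CTRL (log2 fold change at day 14 -4.13 ± 0.26, n = 3 per group, adjusted p = 3.59e-06). Most of its decline had taken place by day 6. AC022168.1 declined later, its libraries holding 41.2 to 43.4 FPKM at day 4, 30.1 to 33.2 FPKM in day 6 CTRL, 12.6 to 13.9 FPKM in day 8 CTRL and 2.97 to 3.27 FPKM in day 14 CTRL (-3.81 ± 0.12, n = 3 per group, adjusted p = 1.98e-07). LINC01356 was at 10.6, 15.3 and 3.01 FPKM at day 4 and at 0.282, 0.0772 and 0.113 FPKM in day 14 CTRL. Its day 4 libraries differed among themselves. LINC01387 was at 8.72, 8.90 and 7.88 FPKM at day 4 and at 0.941, 0.701 and 1.02 FPKM in day 14 CTRL. GATA3-AS1, which overlaps the transcription factor gene GATA3, was at 6.48, 5.02 and 8.56 FPKM and at 0.911, 0.890 and 0.572 FPKM. PCAT14, which reached 5 FPKM in 10 groups, fell by 2.18 on the log2 scale at day 14.

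Several lincRNAs that rose lie beside developmental regulators. On chromosome 12 the HOXC cluster, a row of homeobox genes that pattern the body axis, is followed on the plus strand by FLJ12825 (54058254 to 54122234), AC023794.2 (54082118 to 54102693) and LINC02381 (54126098 to 54142493, GRCh38), the start of FLJ12825 being 25401 bases from that of HOXC5. LINC02381 rose from 52.6, 36.6 and 80.7 FPKM at day 4 to 132, 163 and 144 FPKM in day 14 CTRL (1.35 ± 0.25, n = 3 per group, adjusted p = 0.00159). FLJ12825 rose from between 1.16 and 2.88 FPKM at day 4 to between 8.42 and 14.6 FPKM, and AC023794.2 from between 1.45 and 2.22 FPKM to between 8.02 and 12.1 FPKM. In none of the 3 did the groups overlap, and FLJ12825 and AC023794.2 were also called higher. At day 14 47.6% of all genes tested were called. How often the groups of other genes did not overlap was not worked out. At day 6 the difference of LINC02381 was 0.92 ± 0.23 (adjusted p = 0.0150), a call lost without day 4 replicate 1 (0.0662), CTRL replicate 1 (0.0845) or CTRL replicate 3 (0.0578).

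MIR503HG lies on the minus strand of the X chromosome (134543337 to 134546632). It was at 4.70, 2.21 and 6.20 FPKM at day 4, at 8.45, 4.53 and 5.25 FPKM in day 6 CTRL and at 33.05, 18.0 and 42.1 FPKM in day 14 CTRL. Day 6 overlapped with day 4, whereas day 14 was above it in every library (2.80 ± 0.39, n = 3 per group, adjusted p = 0.000330). LINC01638, on chromosome 22, was almost silent at day 4, at 0.0739, 0 and 0.164 FPKM, and reached 8.06, 5.81 and 10.7 FPKM in day 14 CTRL (6.56 ± 0.56, n = 3 per group, adjusted p = 1.75e-05). AL451048.1, on the X chromosome, had no count at day 4 and was at 4.86, 5.19 and 5.87 FPKM in day 14 CTRL. Set against a floor of 3 counts in each day 4 library this is at least 12.7-fold higher, a bound that covers counting error only. On the log2 scale at day 14, C8orf49 beside GATA4 rose by 2.67, AL645608.6, AL645608.2 and LINC02593 beside SAMD11 on chromosome 1 by 2.78, 2.58 and 1.77, and AC009041.2, whose start lies 212 bases from that of SOX8, by 2.27.

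MALAT1 was lower than at day 4 on all 5 days. It was at 12.2, 13.1 and 12.8 FPKM at day 4 and at 6.56, 6.63 and 6.82 FPKM in day 6 CTRL (-0.92 ± 0.11, n = 3 per group, adjusted p = 0.000197). NORAD moved the other way by a smaller step, from 50.9, 56.2 and 64.0 FPKM to 80.1, 86.3 and 78.0 FPKM in day 12 CTRL (0.50 ± 0.10, n = 3 per group, adjusted p = 0.00431). CRNDE, which starts beside the homeobox gene IRX5, fell by 1.13 at day 14. PURPL, an RNA induced by p53, was at 6.47, 5.96 and 6.70 FPKM at day 4 and at 4.16, 4.95 and 3.83 FPKM in day 14 CTRL. TP53TG1, another p53 target, and PWAR6, from the imprinted Prader-Willi region, were not called in any comparison. TP53TG1 stayed between 3.39 and 5.18 FPKM in the 18 libraries of day 4 and CTRL.

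**Figure D3:**
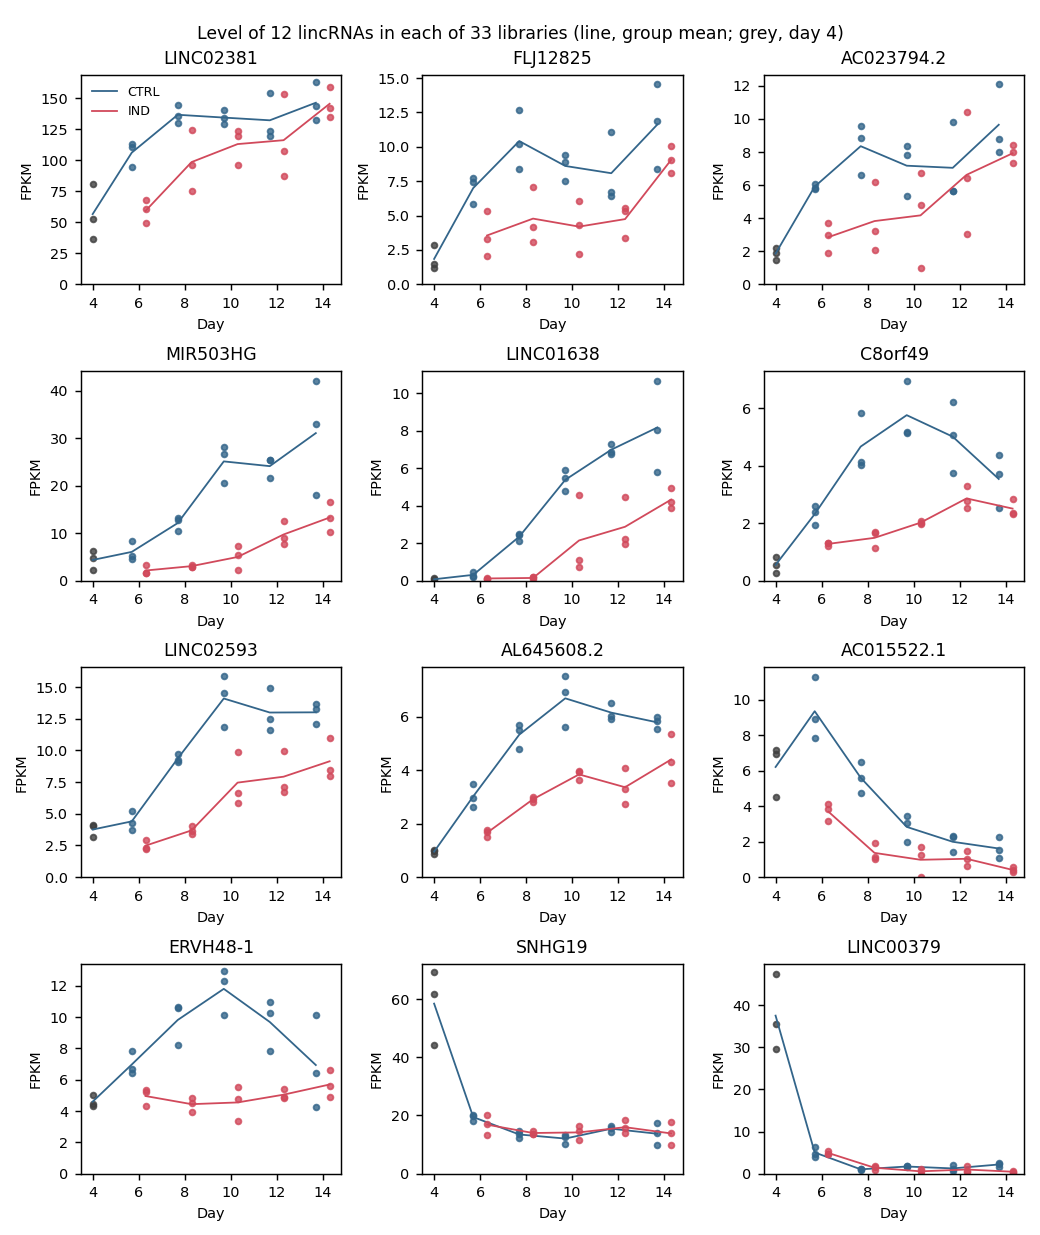
The level in FPKM of 12 lincRNAs (vertical axes, each from 0) by day of differentiation (horizontal axes), with a point for each of the 33 libraries, lines through the CTRL (blue) and IND (red) group means, and day 4 in grey. SNHG19 and LINC00379 drop from day 4 to day 6 in both conditions, while for MIR503HG, LINC02593, AL645608.2 and C8orf49 the CTRL line climbs above the IND line from day 6 onward.

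The effect of induction was followed by comparing IND with CTRL of the same day. At day 6, 7 lincRNAs were lower and none higher among 109 tested, where 3.66% of all genes tested were called (1.29% higher and 2.37% lower). At day 8, 14 were lower and 5 higher among 111, and 14.2% of all genes tested were called (7.49% higher and 6.67% lower). At day 10, 3 were lower and none higher, where 2.03% of all genes tested were called (0.856% higher and 1.18% lower). At day 12, 5 were lower and 1 higher, where 5.42% of all genes tested were called (2.38% higher and 3.04% lower), and at day 14 7 were lower and 2 higher, where 8.43% of all genes tested were called (3.21% higher and 5.22% lower). Each of these lincRNAs also reached 5 FPKM in a group outside the pair compared, but for AC073050.1 (called at day 8), AC069148.1 (days 8 and 12) and NUP50-DT (day 14) that group was day 10 IND alone, and they did not reach it without its replicate 2. The median log2 fold change of the lincRNAs lay between -0.04 and 0.09 and that of all genes between -0.01 and 0.02. In all, 25 lincRNAs were called on at least 1 day, 18 as lower and 7 as higher, none in both directions, and 6 on 3 days or more. A lincRNA could pass the rule through CTRL of another day, the condition in which it was higher. Of the 19 called at day 8, 4 were at 5 FPKM or more in both groups compared. The share of all genes called on at least 1 day was not worked out, so these counts and their directions are a description. IND and DIFF share the CTRL libraries. Single libraries moved these counts, and the share of all genes called, given in parentheses, moved too. The 7 of day 6 became 3 with CTRL replicate 1 dropped (2.03%), 4 with CTRL replicate 3 dropped (2.29%) and 3 with IND replicate 2 dropped (1.78%). The 19 of day 8 became 11 with CTRL replicate 1 dropped (6.92%), 12 with CTRL replicate 3 dropped (6.52%) and 33 with IND replicate 3 dropped (23.6%). The 6 of day 12 became 2 with CTRL replicate 2 dropped (2.41%), 1 with CTRL replicate 3 dropped (2.03%), 15 with IND replicate 1 dropped (9.65%) and 2 with IND replicate 2 dropped (2.88%). The 9 of day 14 became 2 with CTRL replicate 1 dropped (5.54%), 4 with IND replicate 1 dropped (5.73%), 5 with IND replicate 2 dropped (5.89%) and 4 with IND replicate 3 dropped (4.64%).

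Markers of other cell types differed between the same groups. The 6 coelomic epithelium and gonad markers summed to 87.0 to 116 FPKM in day 8 CTRL, with 3 of 6 at 1 FPKM or more, and to 32.7 to 41.5 FPKM in day 8 IND, with 2 of 6. At day 14 the sums were 109 to 144 FPKM and 83.0 to 95.1 FPKM. By group mean at day 8, EMX2 (0.205 FPKM in CTRL and 0.269 FPKM in IND) and NR5A1 (0.0410 and 0.0714 FPKM) were higher in IND. The 5 neuron markers summed to 11.1 to 16.6 FPKM in day 8 CTRL and 6.15 to 7.67 FPKM in day 8 IND, and to 96.9 to 161 FPKM in day 14 CTRL and 42.7 to 58.2 FPKM in day 14 IND. STMN2 was the largest part of the day 14 neuron sums (group means 99.2 FPKM in CTRL and 26.35 FPKM in IND). DCX was higher in day 14 IND (20.1 FPKM in CTRL and 21.7 FPKM in IND). The sum of the 5 muscle markers was lower in IND, at 29.2 to 37.2 FPKM in day 8 CTRL against 15.5 to 22.8 FPKM in IND. At day 14 it was 42.0 to 61.1 FPKM in CTRL against 21.4 to 22.5 FPKM in IND, with 3 of 5 at 1 FPKM or more in each group. At day 8 the group means of DES (17.7 FPKM in CTRL and 4.74 FPKM in IND) and TNNT2 (8.10 and 4.42 FPKM) were lower in IND. ACTC1 was higher there (8.59 and 10.4 FPKM), as were MYH6 and MYOD1 at far lower levels. The sum of the 4 endothelium markers was higher in IND at day 8, at 23.3 to 25.8 FPKM against 19.1 to 20.3 FPKM. At day 14 the ranges overlapped (13.0 to 19.2 and 8.95 to 15.4 FPKM). By group mean at day 8, PECAM1, CDH5 and TEK were higher in IND and KDR was lower (13.55 FPKM in CTRL and 12.55 FPKM in IND). Apart from MYOD1, a muscle marker without counts in day 8 CTRL and in day 14 IND, none of these markers was without counts in any of these groups, and their part in the results below was not tested.

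MIR503HG was called lower in IND on 4 days. At day 8 it was at 3.28, 2.99 and 2.95 FPKM in IND and at 10.5, 13.3 and 12.7 FPKM in CTRL, far from overlapping (-1.98 ± 0.13, n = 3 per group, adjusted p = 7.19e-06). At day 12 the IND libraries held 12.5, 8.98 and 7.69 FPKM and the CTRL libraries 25.4, 21.6 and 25.3 FPKM (-1.28 ± 0.19, n = 3 per group, adjusted p = 0.00726). Both calls held whichever library was left out. The day 6 call (-1.49 ± 0.32, adjusted p = 0.0326) was lost without CTRL replicate 1 (0.103), CTRL replicate 3 (0.0844), IND replicate 2 (0.126) or IND replicate 3 (0.0540). At day 14 the IND libraries, at 10.2, 13.1 and 16.6 FPKM, were all below the CTRL libraries, at 33.05, 18.0 and 42.1 FPKM, with an adjusted p of 0.115. MIR210HG, the host of the hypoxia-induced miR-210, was called in the other direction at day 8, with 9.16, 7.37 and 7.40 FPKM in IND and 4.75, 5.58 and 5.00 FPKM in CTRL (0.65 ± 0.12, n = 3 per group, adjusted p = 0.00558). Of the microRNA host genes on the list, 16 were tested at day 8, with 4 lower and 1 higher, where 6.67% of all genes tested were lower and 7.49% higher.

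In the HOXC region, LINC02381 was lower at day 6, at 67.8, 60.7 and 49.4 FPKM in IND and 113, 94.3 and 111 FPKM in CTRL (-0.83 ± 0.12, n = 3 per group, adjusted p = 0.000503). This call held whichever library was left out. By day 14 the groups overlapped, with 159, 142 and 135 FPKM in IND and 132, 163 and 144 FPKM in CTRL, and the 95% interval of the log2 difference ran from -0.19 to 0.20. AC023794.2 was also called at day 6 (-1.04 ± 0.28, adjusted p = 0.0475), at 3.01, 3.69 and 1.87 FPKM in IND and 6.09, 5.79 and 5.85 FPKM in CTRL, and lost the call when any of the 6 libraries was left out (0.0585 to 0.195). FLJ12825 was not called on any day. Its IND libraries were all below the CTRL libraries on days 6, 8, 10 and 12. At day 8, for example, they were at 3.04, 4.19 and 7.11 FPKM against 12.7, 8.42 and 10.2 FPKM (adjusted p = 0.0986). How often this held over all genes was not worked out.

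The lincRNAs beside SAMD11 were lower in IND on several days. LINC02593 was at 3.62, 3.37 and 4.07 FPKM in day 8 IND and at 9.75, 9.11 and 9.24 FPKM in day 8 CTRL (-1.34 ± 0.10, n = 3 per group, adjusted p = 9.84e-06). AL645608.2 was at 2.92, 3.00 and 2.82 FPKM against 5.68, 4.79 and 5.52 FPKM (-0.87 ± 0.12, n = 3 per group, adjusted p = 0.000722), and SAMD11 itself fell by 1.92 on the log2 scale (adjusted p = 1.47e-06). Both lincRNA calls at day 8 held whichever library was left out. The day 6 call of LINC02593 (-0.82, adjusted p = 0.00706) was lost without CTRL replicate 1 (0.0583) or IND replicate 2 (0.0594), and its day 14 call (-0.50, adjusted p = 0.0173) without CTRL replicate 1 (0.0752), IND replicate 2 (0.0799) or IND replicate 3 (0.115). The day 6 call of AL645608.2 (-0.86, adjusted p = 0.0105) was lost without CTRL replicate 1 (0.0692), and its day 12 call (-0.86, adjusted p = 0.0212) without CTRL replicate 1 (0.0884), CTRL replicate 2 (0.0821), CTRL replicate 3 (0.0816) or IND replicate 2 (0.0683).

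C8orf49 and LINC01638 had the same direction. C8orf49 was at 1.67, 1.68 and 1.12 FPKM in day 8 IND and at 4.02, 5.84 and 4.12 FPKM in day 8 CTRL (-1.65 ± 0.21, n = 3 per group, adjusted p = 0.000530), and GATA4, a transcription factor gene of the coelomic epithelium 1254 bases away, fell by 1.34 on the log2 scale (adjusted p = 0.000169). LINC01638 was at 0.0794, 0.181 and 0.186 FPKM in day 8 IND and at 2.14, 2.49 and 2.42 FPKM in day 8 CTRL (-3.93 ± 0.35, n = 3 per group, adjusted p = 5.25e-05). Its IND libraries were thus near the level of day 4, while CTRL had left it. By day 14 it was at 4.19, 3.86 and 4.94 FPKM in IND and at 8.06, 5.81 and 10.7 FPKM in CTRL (-0.90 ± 0.22, n = 3 per group, adjusted p = 0.0227), a call lost without CTRL replicate 1 (0.0769), CTRL replicate 3 (0.0694), IND replicate 1 (0.0771), IND replicate 2 (0.0891) or IND replicate 3 (0.0630). The day 6 call of C8orf49 (-0.85, adjusted p = 0.0388) was lost when any of the 6 libraries was left out (0.0503 to 0.143).

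AL451048.1 had 3 counts in all in the 3 day 8 IND libraries and 70 in the CTRL libraries, a ratio of CTRL to IND of 23.3 with a 95% counting interval of 7.64 to 116 (edgeR adjusted p = 0.00186). At day 12 it was at 2.31, 2.29 and 2.48 FPKM in IND and at 5.25, 7.09 and 6.85 FPKM in CTRL (-1.42 ± 0.29, n = 3 per group, adjusted p = 0.0269), a call lost without CTRL replicate 1 (0.0531), CTRL replicate 2 (0.117), CTRL replicate 3 (0.119), IND replicate 2 (0.0798) or IND replicate 3 (0.0589). AC015522.1, beside the gene RALYL, was lower in IND at day 6, at 3.15, 4.10 and 3.82 FPKM against 7.87, 11.3 and 8.93 FPKM (-1.33 ± 0.22, n = 3 per group, adjusted p = 0.00175), and at day 8, at 1.01, 1.14 and 1.95 FPKM against 5.60, 6.47 and 4.73 FPKM (-2.01 ± 0.29, n = 3 per group, adjusted p = 0.000903). Neither group of libraries came near the other on these days. LINC01896, beside the developmental zinc finger gene SALL3, was at 1.68, 2.00 and 2.06 FPKM in day 8 IND and at 3.57, 3.70 and 4.33 FPKM in CTRL (-1.01 ± 0.17, n = 3 per group, adjusted p = 0.00270). The day 14 call of AC015522.1 (-1.91, adjusted p = 0.0223) was lost without CTRL replicate 2 (0.0522), CTRL replicate 3 (0.0884), IND replicate 1 (0.0770) or IND replicate 2 (0.0927), and that of LINC01896 (-0.81, adjusted p = 0.0431) when any of the 6 libraries was left out (0.0721 to 0.159).

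ERVH48-1 is an endogenous retrovirus gene whose product suppressyn blocks cell fusion by syncytin. Its IND libraries stayed between 3.35 and 6.60 FPKM on all 5 days. At day 8 it was at 3.94, 4.83 and 4.54 FPKM in IND and at 8.21, 10.7 and 10.6 FPKM in CTRL (-1.14 ± 0.13, n = 3 per group, adjusted p = 0.000181), the CTRL libraries being clearly above. At day 12 it was at 5.38, 4.84 and 4.91 FPKM against 7.84, 10.3 and 11.0 FPKM (-0.92 ± 0.16, n = 3 per group, adjusted p = 0.0135), a call lost without CTRL replicate 2 (0.0666), CTRL replicate 3 (0.0729) or IND replicate 2 (0.0502). AC009041.2, beside SOX8, fell by 0.80 at day 8 (adjusted p = 0.00299). Its day 14 call (-0.52, adjusted p = 0.0143) was lost without CTRL replicate 1 (0.0827) or IND replicate 3 (0.0809).

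Among the snoRNA host genes, none of the 23 tested was called at day 6, where 3.66% of all genes tested were called. At day 8, 2 were higher and 3 lower of 24, where 7.49% of all genes tested were higher and 6.67% lower. SNHG4 was at 0.838, 0.695 and 0.765 FPKM in day 8 IND and at 1.42, 1.12 and 1.70 FPKM in CTRL (-0.88 ± 0.19, n = 3 per group, adjusted p = 0.0119), a call lost without CTRL replicate 1 (0.0537), CTRL replicate 3 (0.0724) or IND replicate 2 (0.0569). At day 12 it was at 0.410, 0.482 and 0.399 FPKM against 0.981, 1.01 and 1.05 FPKM (-1.22 ± 0.20, n = 3 per group, adjusted p = 0.00981), lost without CTRL replicate 3 (0.0586). EPB41L4A-AS1 was slightly higher in IND at day 8, at 15.1, 14.8 and 14.6 FPKM against 10.7, 12.8 and 12.3 FPKM (0.32 ± 0.08, n = 3 per group, adjusted p = 0.0297), lost without CTRL replicate 1 (0.142), CTRL replicate 3 (0.104), IND replicate 1 (0.0914) or IND replicate 2 (0.107). SNHG19, which changed so much between day 4 and day 6, was not called on any day after induction, and the 95% interval of its log2 difference at day 8 ran from -0.26 to 0.38.

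Some lincRNAs were called higher in IND, 5 at day 8 beside 7.49% of all genes tested and 2 at day 14 beside 3.21%. LINC01356 was at 1.56, 0.858 and 1.03 FPKM in day 8 IND and at 0.253, 0.601 and 0.466 FPKM in CTRL (1.39 ± 0.36, n = 3 per group, adjusted p = 0.0248), a call lost without CTRL replicate 1 (0.109), CTRL replicate 3 (0.0821) or IND replicate 1 (0.0989). AC073050.1 was at 6.09, 4.21 and 1.18 FPKM against 0.524, 0.876 and 0.403 FPKM at day 8 (2.64 ± 0.60, n = 3 per group, adjusted p = 0.0177), lost without CTRL replicate 1 (0.103), CTRL replicate 3 (0.0921) or IND replicate 2 (0.0640). At these low levels the IND libraries of AC073050.1 differed widely among themselves. At day 14 NORAD was at 99.2, 91.0 and 106 FPKM against 77.2, 77.2 and 74.0 FPKM (0.39 ± 0.09, n = 3 per group, adjusted p = 0.0149), lost without CTRL replicate 1 (0.0613), IND replicate 1 (0.0707) or IND replicate 3 (0.0722). CRNDE, at 6.37, 5.75 and 6.64 FPKM against 4.30, 3.96 and 4.66 FPKM at day 14 (0.55 ± 0.10, n = 3 per group, adjusted p = 0.00444), kept its call whichever library was left out.

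LINC00379, which had dropped early in CTRL, was lower still in day 14 IND, at 0.169, 0.448 and 0.675 FPKM against 2.48, 2.33 and 1.66 FPKM (-2.24 ± 0.48, n = 3 per group, adjusted p = 0.00932), a call lost without CTRL replicate 1 (0.0566). The other calls of days 6, 8, 12 and 14 were AL645608.6 (-0.87), AL135925.1 (-0.55) and GATA3-AS1 (-0.60) as lower and AC069148.1 (0.76) as higher at day 8, AC069148.1 (0.87) as higher at day 12 and NUP50-DT (-0.75) as lower at day 14, with adjusted p from 0.0210 to 0.0492. AL645608.6 lost its call without CTRL replicate 1 (0.0757), CTRL replicate 2 (0.0716), IND replicate 1 (0.0665) or IND replicate 2 (0.0856), AL135925.1 without CTRL replicate 1 (0.0810), CTRL replicate 2 (0.0579), CTRL replicate 3 (0.0996) or IND replicate 1 (0.0820) and GATA3-AS1 without CTRL replicate 1 (0.193), CTRL replicate 2 (0.0789), CTRL replicate 3 (0.0900) or IND replicate 2 (0.181). AC069148.1 lost its day 8 call without CTRL replicate 1 (0.138), CTRL replicate 2 (0.0735), CTRL replicate 3 (0.0719), IND replicate 1 (0.0927) or IND replicate 2 (0.0714) and its day 12 call without CTRL replicate 1 (0.133), CTRL replicate 2 (0.167), CTRL replicate 3 (0.138), IND replicate 2 (0.0865) or IND replicate 3 (0.103), and NUP50-DT its call without CTRL replicate 1 (0.0864), CTRL replicate 2 (0.147), IND replicate 1 (0.0772), IND replicate 2 (0.151) or IND replicate 3 (0.0985). PCAT14, first named in prostate cancer, was not called on any day although all its IND libraries were above CTRL on days 8, 10 and 12. At day 12 it was at 16.4, 16.2 and 16.3 FPKM in IND and at 2.82, 9.26 and 7.78 FPKM in CTRL. The log2 fold change was 1.32 ± 0.36 (adjusted p = 0.0725). How often the libraries of other uncalled genes lay apart was not worked out.

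**Figure D4:**
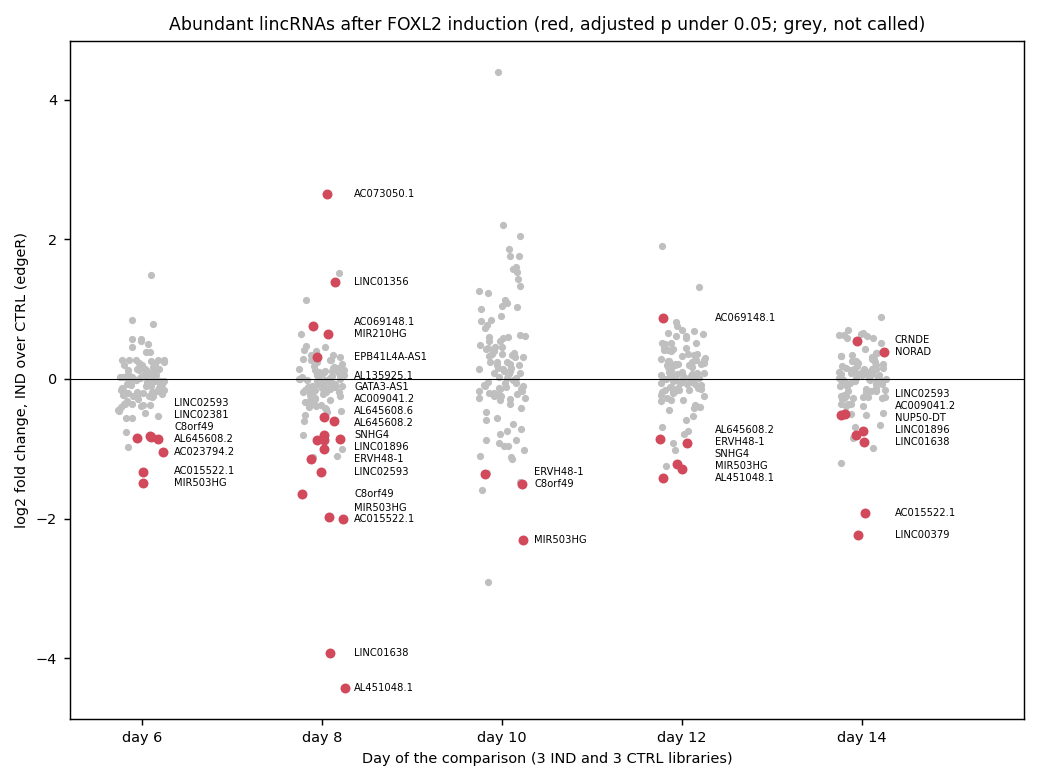
The log2 fold change of IND over CTRL (vertical axis) for each lincRNA tested, by day (horizontal axis), with lincRNAs past an adjusted p of 0.05 in red and named, and the others in grey. On each day more red points lie below 0 than above, and the 3 red points of day 10 are all below 0. Of all genes tested, more were also called lower than higher on days 6, 10, 12 and 14, but not at day 8.

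Day 10 rests on the library that stood apart. With it, MIR503HG (-2.31 ± 0.41, adjusted p = 0.0479), C8orf49 (-1.50 ± 0.20, adjusted p = 0.0192) and ERVH48-1 (-1.36 ± 0.22, adjusted p = 0.0343) were called lower. All 3 calls were lost without CTRL replicate 1, 2 or 3 or IND replicate 1 or 3 (adjusted p from 0.0774 to 0.260). Without IND replicate 2, 26 of the 111 lincRNAs were called, 17 lower and 9 higher, where 18.2% of all genes tested were called (8.74% higher and 9.51% lower). The log2 fold change, with the adjusted p in parentheses, was then -1.97 (0.000120) for MIR503HG, -2.52 (7.52e-06) for LINC01638, -1.48 (3.54e-05) for C8orf49, -1.19 (1.38e-05) for ERVH48-1, -1.16 (6.63e-05) for LINC02593 and -0.31 (0.0265) for LINC02381. MALAT1 was higher by 0.27 and MIR210HG by 0.60.

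Whether the induction effect of a lincRNA differed between days was tested as the interaction of day and induction over the 30 libraries after day 4. A total of 3 lincRNAs passed (AC069148.1, AC245041.2 and AL451048.1), where 2.38% of 22442 genes tested were called. AC069148.1 reached 5 FPKM only in day 10 IND, and not without replicate 2, and AC245041.2 only in day 14 IND (5.47 FPKM). These groups enter the interaction, so the values of both are a description. AC245041.2 was not called in IND against CTRL on any single day with all libraries. Without replicate 1, 2 or 3 of every group, 0, 2 and 1 lincRNAs were called (0.191%, 1.11% and 0.53% of all genes tested). Without day 10 IND replicate 2 alone 7 lincRNAs were, where 4.38% of all genes tested were called. AC245041.2 was at 1.93, 1.85 and 1.29 FPKM in day 6 IND against 0.978, 0.984 and 0.978 FPKM in CTRL, all IND libraries being higher, and at 2.48, 1.498 and 2.51 FPKM in day 10 IND against 4.04, 4.27 and 3.68 FPKM, all being lower. AC069148.1, which starts 1050 bases from the Wnt receptor gene FZD7, was above CTRL in all IND libraries at day 8, at 4.54, 3.94 and 4.58 FPKM against 2.29, 2.51 and 2.94 FPKM, and below it at day 14, at 2.68, 2.32 and 2.17 FPKM against 2.99, 3.76 and 3.27 FPKM. AL451048.1, lower in IND at day 8, was at 5.10, 3.60 and 5.44 FPKM in day 14 IND against 4.86, 5.19 and 5.87 FPKM in CTRL, where the groups overlapped. LINC01638 (adjusted p = 0.0586) and C8orf49 (0.0796) did not pass with all 30 libraries but did without day 10 IND replicate 2 (0.000387 and 0.0454).

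Several lincRNAs ran in step with their neighbour. Over the 11 group means, the Pearson correlation of log2(FPKM + 1) with the nearest protein-coding gene had a median of 0.418 for the 109 lincRNAs with a value, and 30 of them (27.5%) were above 0.7. For the 486 other lincRNAs with a highest group mean between 1 and 5 FPKM the median was 0.137, and 14.4% were above 0.7. The points share libraries, days and treatment across all genes, so these values are descriptions. The highest were LINC01896 with SALL3 (0.990), AL451048.1 with SPANXB1 (0.980), C8orf49 with GATA4 (0.979), AC015522.1 with RALYL (0.960) and AC074135.1 with ZNF730 (0.960), the last sharing 18.4% of its exon bases. RALYL did not exceed 0.575 FPKM in any group mean. LINC01638 lies 523550 bases from MN1 and had a correlation of 0.954 with it, and LINC02593, AL645608.2 and AL645608.6 had 0.944, 0.912 and 0.840 with SAMD11.

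**Figure D5:**
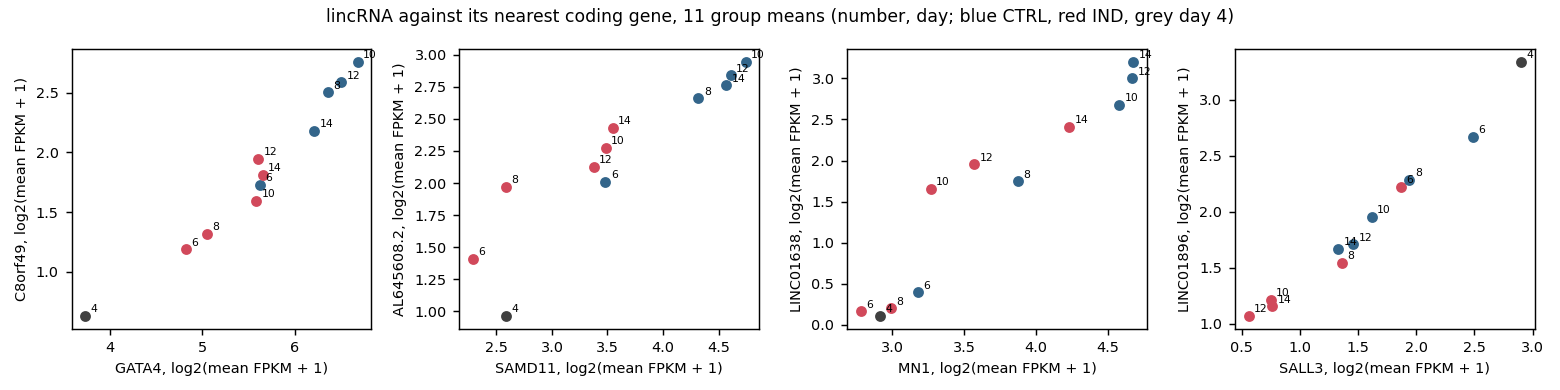
Group means of C8orf49, AL645608.2, LINC01638 and LINC01896 (vertical axes) against GATA4, SAMD11, MN1 and SALL3 (horizontal axes), all as log2(mean FPKM + 1), with day 4 in grey, CTRL in blue and IND in red. The 11 points rise together in each panel, with correlations of 0.979, 0.912, 0.954 and 0.990, and on each day the IND point lies lower and to the left of the CTRL point.

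A few lincRNAs ran against their neighbour. Among the lowest values were AC015922.3 with TBC1D26 (-0.751), LINC01387 with L3MBTL4 (-0.695), LINC01023 with FER (-0.675) and AL109936.6 with HNRNPR (-0.590). TBC1D26 and L3MBTL4 were low, at no more than 0.382 and 0.286 FPKM in any group mean. LINC02381 and FLJ12825 overlap SMUG1, on the other strand, and had -0.189 and -0.148 with that gene.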

How the data were processed

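RNA of 33 libraries (11 groups of 3) was poly-A selected and sequenced without strand information. Per the submitters' processing notes, reads were trimmed with fastp 0.23.2, aligned to GRCh38 with HISAT2 2.0.5 and assigned to genes with featureCounts 1.5.0-p3. The authors deposited raw counts per gene and FPKM values, scaled by them to gene length and library total. Gene coordinates were those of GENCODE 29.

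Groups were tested on the deposited counts with edgeR 4.0.16 in R 4.3.3 (filterByExpr, TMM, robust quasi-likelihood, both groups of a comparison in 1 fit, adjusted p under 0.05 over all genes). Each ± is the standard error of the log2 fold change, |log2 fold change| over the root of F, and its 95% interval is the normal interval from it. Levels are the deposited FPKM. Depth was 23940837 to 51912815 counts, and counting intervals cover counting error only. Alternatives were RLE size factors, other filters, 1 fit over all libraries, a replicate block, a minimum fold, DESeq2 1.42.0 (a likelihood-ratio test for the interaction), limma 3.58.1 on log2(FPKM + 1), other thresholds and leaving out each library. Scripts were tested on simulated data. Replicate numbers were not used to pair samples: no IND pair of 15 and 2 DIFF pairs of 15 correlated above 0.1.

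The lincRNAs, the gene lists and the tests were chosen with earlier results of these data known. Named were the 10 most abundant, up to 4 in each direction per comparison, those on the lists of known roles, the 5 lowest interaction p-values, the threshold neighbours and the 5 highest and lowest neighbour correlations, of which 1 is not reported here. Other calls were named after their values were seen. XIST was left out.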

Additional observations from a re-analysis of the deposited data

Results flagged for a closer look

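The interaction of day and induction called 3 lincRNAs (quasi-likelihood test of edgeR, with p adjusted over 22442 genes). Of all genes tested, 2.38% were called. The adjusted p were 0.03917 for AC069148.1, 0.04309 for AC245041.2 and 0.04522 for AL451048.1. AC069148.1 had a log2 fold change of IND over CTRL of 0.76 at day 8 and -0.47 at day 14. AC245041.2 had 0.79 at day 6 and -0.87 at day 10, and was not called in IND against CTRL on any single day with all libraries. Its day 10 value was -0.67 without IND replicate 2. AL451048.1 had 3 counts in IND against 70 in CTRL at day 8 and a log2 fold change of -0.15 at day 14. Without replicate 1 of every group the adjusted p were 0.517, 0.666 and 0.673, without replicate 2 0.298, 0.334 and 0.0338, and without replicate 3 0.390, 0.0447 and 0.507, in the same order. Without day 10 IND replicate 2 alone they were 0.0201, 0.0281 and 0.00667, and 7 lincRNAs were called, where 4.38% of all genes tested were called. AC069148.1 and AC245041.2 were chosen through day 10 IND and day 14 IND alone, groups that enter this test, so the values of both are a description.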

How the results depend on the processing

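Of 463 alternative values of 36 named log2 fold changes, 349 kept their direction and side of the threshold, 114 kept the direction but lost the call and none reversed. For IND, the lincRNAs called at day 6 (7) became 4 in 1 fit over all 33 libraries, 11 with DESeq2, 11 with no filter on low counts and 3 with a minimum fold (log2 fold change of 1 or more in size). Over all genes at day 6, 246 were higher and 454 lower of 19133 in the test above. In 1 fit 155 were higher and 309 lower of 22613. With DESeq2 370 and 635 of 34501 were, and with no filter 495 and 714 of 34501. At day 8 (19) the lincRNAs became 12 in 1 fit and 10 with the minimum fold. There 824 genes were higher and 775 lower of 22613 in 1 fit, against 1455 and 1297 of 19433 in the test above. At day 10 (3) the lincRNAs became 33 in 1 fit (21 higher and 12 lower), 14 with DESeq2 and 5 with limma. Over all genes, 2037 were higher and 1288 lower of 22613 in 1 fit, against 170 and 234 of 19858 in the test above. DESeq2 gave 1025 and 746 of 35767, and limma 123 and 267 of 19858. At day 12 (6) the lincRNAs became 14 with DESeq2, 13 with no filter and 3 with the minimum fold. Over all genes, 901 were higher and 1069 lower of 35883 with DESeq2, and 824 and 1054 with no filter. The test above gave 475 and 605 of 19924. At day 14 (9) the lincRNAs became 14 with no filter and 2 with the minimum fold. Over all genes, 1015 were higher and 1433 lower of 35398 with no filter, against 612 and 994 of 19055. For DIFF the minimum fold left 17 of 35 at day 6 and 33 of 57 at day 8. The interaction (3) gave 10 with DESeq2 and 19 with no filter. Over all genes it called 1267 and 2360 of 42767, against 533 of 22442 in the test above. The share of all genes past the minimum fold was not worked out. A threshold of 2 FPKM gave 318 lincRNAs and of 10 FPKM 35, against 111. The cause of these changes was not tested.

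Leaving out 1 library gave 3 to 7 calls for IND at day 6, 11 to 33 at day 8, 0 to 26 at day 10, 1 to 15 at day 12 and 2 to 11 at day 14, 23 to 47 for DIFF at day 6, 39 to 62 at day 8, 47 to 72 at day 10, 52 to 66 at day 12 and 51 to 68 at day 14. The share of all genes called ran from 1.78% to 4.64% for IND at day 6 and 6.52% to 23.6% at day 8. It was 0.0532% to 18.2% at day 10, 2.03% to 9.65% at day 12 and 4.64% to 9.99% at day 14. For DIFF it was 12.1% to 30% at day 6, 23.4% to 44.5% at day 8 and 32.3% to 52% at day 10. At days 12 and 14 it was 36.4% to 52.9% and 35.2% to 51%. The interaction gave 7 without day 10 IND replicate 2 (4.38% of all genes). It gave 0, 2 and 1 without replicate 1, 2 and 3 of every group (0.191%, 1.11% and 0.53%), a range of 0 to 7. With the replicate number as a block, although the numbers do not pair the samples, the calls of IND were 8, 22, 0, 10 and 12 on days 6, 8, 10, 12 and 14, those of DIFF 41, 55, 52, 58 and 57, and that of the interaction 2. Over all genes the block gave 362 higher and 560 lower for IND at day 6 and 1643 and 1323 at day 8. At day 10 it gave 6 and 9, at day 12 633 and 730 and at day 14 790 and 1158. For DIFF it gave 2434 and 2357, 3348 and 3310, 3835 and 3448, 4560 and 4299, and 4114 and 3623 on these days. With the block the interaction called 566 of 22442 genes. Leaving out day 10 IND replicate 2 in choosing the lincRNAs (99) was an alternative chosen after seeing the data. Lower levels and 3 technical replicates of 1 differentiation limit what could be detected.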
